A study of Sus scrofa with 6 samples.

Results

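The genes described here drive cells through division, and were measured in preovulatory ovarian follicles of sows. They include cyclins, cyclin-dependent kinases and their partners, the machinery that licenses and copies DNA, and the proteins of the centromere, spindle and mitotic chromosome. Members were chosen by gene symbol (such as CCNB, CDK, MCM, POLD, RFC, CENP and KIF followed by a number or letter), and their signal had to exceed 50 on 3 or more of the 6 arrays. Of 120 probe sets with such a symbol, 116 passed this level, and they stand for 86 genes among the 19196 probe sets tested. A total of 24 of these genes had more than 1 probe set (54 probe sets in all), so that probe sets are not independent measurements. Sorted by role, 76 probe sets of 60 genes belong to 5 division groups. The other 40, of 26 genes, share the name pattern but most are known mainly for other work (such as CDC42, CDK5 and KIF3A), and they serve here as a contrast. The sorting is not strict. The contrast includes CDK7, which activates other cyclin-dependent kinases, and the division groups include TOP2B and RRM2B, which are not limited to dividing cells.

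Each of the 6 porcine GeneChip arrays was hybridized with RNA of healthy follicles over 5 mm from 1 sow, and 3 sows were Large White and 3 Chinese Erhualian (named Taihu in the paper). All were multiparous, and every sow of both breeds received 1000 IU PMSG, a gonadotropin that makes follicles grow, and 500 IU hCG, which acts like the ovulatory LH surge, 80 h later. They were killed 30 to 38 h after hCG, and 5 µg of total RNA went into each labelling. The breeds came from different farms, so breed and farm cannot be told apart, and no untreated sows are among the samples. Signal intensities are linear values as the authors normalized them. A log2 difference is Chinese Erhualian minus Large White throughout, so that negative values mean a lower signal in Chinese Erhualian sows.

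Cells that divide pass from a gap phase (G1) through DNA synthesis (S phase) and a second gap (G2) into mitosis (M phase). D-type cyclins and CDK2 act in G1, MCM proteins open the DNA at origins, and cyclin B with its kinase starts mitosis, after which the anaphase-promoting complex degrades it. Many of these transcripts are made mainly in cycling cells, so that their level in a tissue is commonly read as a sign of proliferation. In the follicle, granulosa cells divide rapidly under FSH and estradiol, and the LH surge stops this division while the cells turn into luteal cells.

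Some arrays stood apart in markers of cell types. On the array of Chinese Erhualian sow 1, all 9 measured markers of surface epithelium and oviduct had their highest signal of the 6 arrays, with a sum of 45464 against 1773 to 8553 on the other arrays. The 11 granulosa markers summed to 2063 in this sow and to 11932 to 18459 in the others. The 6 theca markers summed to 335 in this sow, to 36426 in Large White sow 1 and to 42532 in Chinese Erhualian sow 2. In the other sows they summed to 6548 to 12906. In Large White sow 1 the theca sum came mostly from STAR (12051), CYP11A1 (12210) and HSD3B1 (10505). These and CYP17A1 (459) were the highest of the breed there, whereas INSL3 (1121) and LHCGR (79.9) were the lowest. The 12 leukocyte markers summed to 20758 in Large White sow 2 and to 3983 to 7215 in the others. Endothelial markers (8 genes, 5104 to 6065) and smooth muscle markers (7 genes, 16107 to 23058) differed less. Oocyte markers (6 genes) summed to 1919 to 3027 in Large White and to 1076 to 1581 in Chinese Erhualian sows. Among them, KIT had 1541, 1303 and 2235 in Large White against 376, 341 and 580 in Chinese Erhualian sows. The signals of ZP2, ZP3, ZP4, GDF9 and BMP15 overlapped between the breeds. No marker was at 0. Not all markers of a list moved together. Of the 11 granulosa markers, 6 had their lowest signal in Chinese Erhualian sow 1 and 2 their highest. INHA, the alpha subunit of inhibin, had 446 there against 6510 to 10684 elsewhere, whereas INHBA, the beta A subunit, had 899 against 233 to 387. In follicle RNA, fewer cells of a type and less RNA per cell cannot be told apart, and the part of these differences in the results given here was not tested.

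No member differed between the breeds at an adjusted p under 0.05 (limma with Benjamini-Hochberg adjustment over all tested probe sets), a level passed by 0.0208% of all tested probe sets (4). At an unadjusted limma p of at most 0.05, 5 members had a lower signal in Chinese Erhualian sows (4.31%, against 2.3% of all tested probe sets) and 3 a higher signal (2.59%, against 1.56%). All 5 lower probe sets belong to the division groups, and all 3 higher ones to KIF3A. The lower count was 8 without Large White sow 2, 10 without Chinese Erhualian sow 2 and 4 to 6 without another sow. Over all 19196 tested probe sets this count was 229, 743 and 420 to 469 in these fits, and 441 with every sow. The higher count of members was 1 without sow 1 or sow 2 of either breed. Over all tested probe sets it was 144 to 482 with a sow left out, and 300 with every sow. The methods' t-test gave 7 lower and 2 higher members at this level and 0 after adjustment. In either direction it gave 9 of 116 members and 846 of all 19196 tested probe sets. In 17 members every Chinese Erhualian signal lay below every Large White signal (14.7%, against 5.12% of all tested probe sets), and in 4 members every one lay above (3.45%, against 3.98%). Median scaling of the arrays reduced the count of 17 to 10. The log2 difference was negative in 56 of the 76 division probe sets (73.7%), where 49.7% of all tested probe sets were negative. In the contrast group it was negative in 20 of 40.

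By role, the median log2 difference was -0.31 over the 8 probe sets of G1 cyclins and kinases and -0.16 over the 14 of S, G2 and M phase cyclins and kinases. It was -0.14 over the 35 of licensing and replication, -0.30 over the 12 of centromere and checkpoint and -0.44 over the 7 of spindle and chromosome structure. The contrast group had a median of -0.01, and all tested probe sets had a median of 0.00. These medians are small beside the differences among sows of the same breed. When each probe set was set against its own median over the 6 arrays, Large White sow 1 had the highest group median in all 5 division groups, from 0.27 in replication to 0.69 in spindle and chromosome structure (log2). It had 0.02 in the contrast group. This sow had the highest of the 6 signals in 43 of the 76 division probe sets (56.6%, against 19.3% of all tested probe sets). Its signal was at least 1.5 times that of the next sow in 19 of them (25.0%, against 1.16%). Chinese Erhualian sow 1 had the lowest signal in 26 of the 76 (34.2%, against 23.1%). For 22 division probe sets the highest signal was that of Large White sow 1 and the lowest that of Chinese Erhualian sow 1 (28.9%, against 5.95%).

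**Figure D1:**
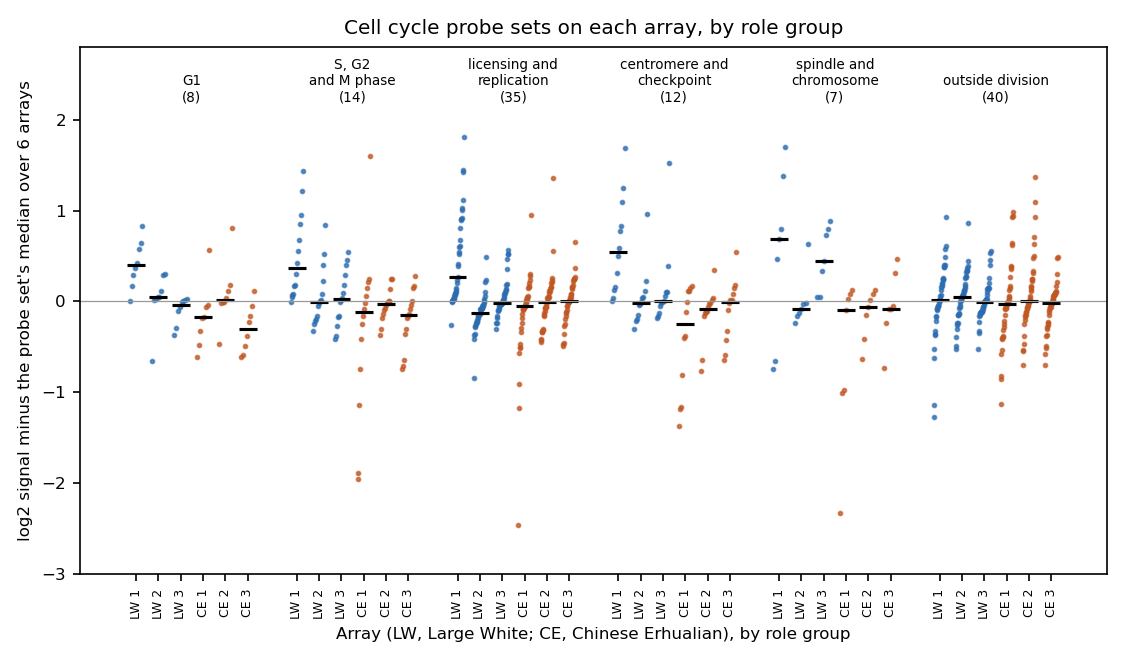
Log2 signal of each of the 116 member probe sets minus that probe set's median over the 6 arrays (vertical axis). The horizontal axis gives array and role group. Points are probe sets, bars are medians, blue is Large White, orange is Chinese Erhualian, and the number of probe sets is in parentheses. The bar of Large White sow 1 lies at 0.27 to 0.69 in the 5 division groups and at 0.02 in the group outside division.

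Leaving out single sows showed how far the group median rested on them. Without Large White sow 1 the median over the division probe sets went from -0.19 to -0.10, and without Chinese Erhualian sow 1 it was -0.19. Without both it was -0.03. Over all 116 members the corresponding medians were -0.13, -0.08, -0.12 and -0.04.

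The probe set with the smallest p was that of HUS1, a subunit of the ring-shaped checkpoint clamp that is loaded on damaged DNA. Its signals were 714, 928 and 1369 in the 3 Large White sows, against 184, 279 and 316 in the 3 Chinese Erhualian sows. The breeds did not overlap, and Large White sow 1 was the lowest of its breed here. The Large White mean of 1004 ± 334 (SD, n = 3) was 3.87 times the Chinese Erhualian mean of 260 ± 68.2. The log2 difference was -1.94 (SE 0.33, 95% interval -2.73 to -1.14, adjusted p = 0.545).

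LMNB1, the lamin B1 of the inner nuclear membrane, had signals of 766, 367 and 393 in Large White against 120, 152 and 142 in Chinese Erhualian sows. The Chinese Erhualian signals lay within a narrow band below all Large White signals, of which that of sow 1 was the highest. Means were 509 ± 223 and 138 ± 16.5 (SD, n = 3). The log2 difference was -1.80 (SE 0.32, 95% interval -2.56 to -1.04, adjusted p = 0.588).

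CKS2, a small protein that binds cyclin-dependent kinases and helps them to act on multiply phosphorylated targets, had signals of 2562, 2374 and 1502 in Large White against 600, 1172 and 810 in Chinese Erhualian sows. All Chinese Erhualian signals lay below the lowest Large White signal, with a log2 difference of -1.33 (SE 0.33, 95% interval -2.13 to -0.54, adjusted p = 0.993). Its close relative CKS1B lay at 759, 614 and 808 in Large White against 550, 613 and 598 in Chinese Erhualian sows. These signals did not overlap either, but by a margin of 614 to 613, and the log2 difference was -0.30 (95% interval -0.76 to 0.16).

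CENPH, a component of the kinetochore at the centromere throughout the cell cycle, had signals of 231, 146 and 177 in Large White against 124, 86.2 and 85.8 in Chinese Erhualian sows. The breeds did not overlap, and Chinese Erhualian sow 1 was the highest of its breed. The log2 difference was -0.90 (SE 0.24, 95% interval -1.49 to -0.32, adjusted p = 0.993).

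BIRC5 (survivin), a subunit of the chromosomal passenger complex that corrects the attachment of chromosomes, had signals of 892, 325 and 299 in Large White against 122, 258 and 222 in Chinese Erhualian sows. The sows numbered 1 marked both ends of the range, and the other 4 lay between 222 and 325. The breeds did not overlap, with 258 as the highest Chinese Erhualian and 299 as the lowest Large White signal. The log2 difference was -1.21 (SE 0.50, adjusted p = 0.993). It was -0.71 without Large White sow 1 and -0.89 without Chinese Erhualian sow 1, and in both cases it no longer passed an unadjusted p of 0.05. BIRC5 passed this level in 1 of the 6 fits that left out a sow, whereas HUS1, LMNB1, CKS2 and CENPH passed it in all 6. In these fits the log2 difference ranged from -2.16 to -1.69 for HUS1, from -1.58 to -1.10 for CKS2 and from -1.08 to -0.73 for CENPH, and that of LMNB1 was -1.47 or lower.

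**Figure D2:**
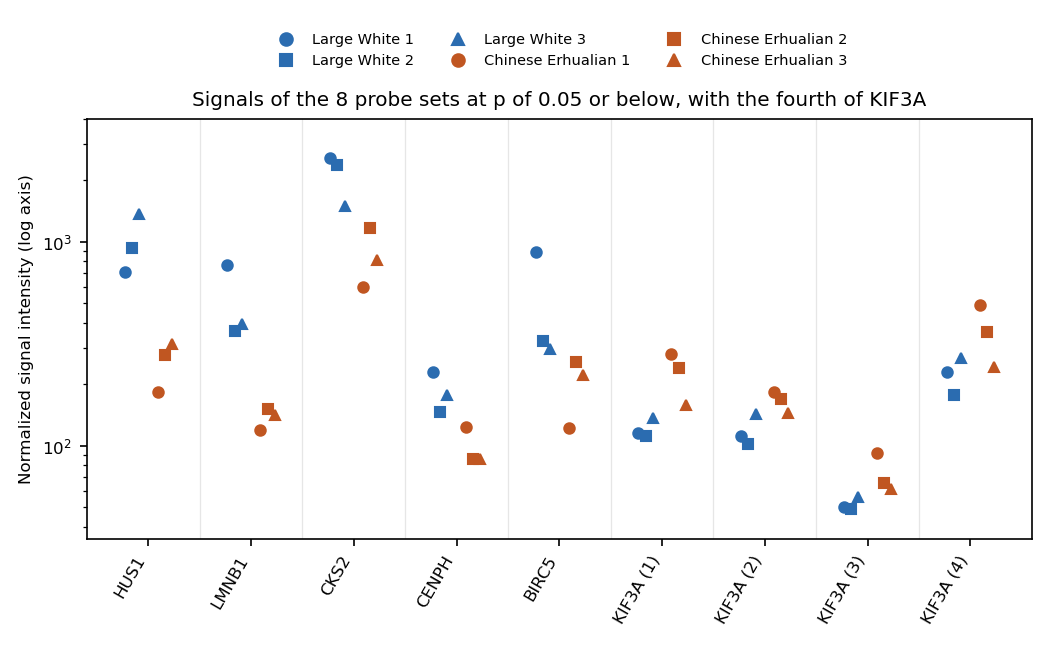
Normalized signal intensity (log axis) in each of the 6 sows for the 8 probe sets with an unadjusted limma p of at most 0.05, and for the remaining probe set of KIF3A. Blue is Large White, orange is Chinese Erhualian, and the symbol shape gives the sow number. HUS1, LMNB1, CKS2, CENPH and BIRC5 were lower in every Chinese Erhualian sow than in every Large White sow. BIRC5 spread most between the sows numbered 1 (892 and 122).

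Of the G1 group, 0 of 8 probe sets passed an unadjusted p of 0.05 in either direction. CCND2, the D-type cyclin that FSH induces in granulosa cells, had signals of 1239, 610 and 740 in Large White against 1416, 1678 and 626 in Chinese Erhualian sows. The breeds overlapped, with the lowest signal in Large White sow 2, and the log2 difference of 0.47 had a 95% interval of -0.62 to 1.56. CDK2, the kinase that pairs with cyclins E and A, was measured by 3 probe sets. The brightest had signals of 588, 344 and 334 in Large White against 238, 329 and 296 in Chinese Erhualian sows (log2 difference -0.51, 95% interval -1.20 to 0.17), and the dimmest 107, 69.3 and 69.6 against 44.7, 67.6 and 58.3 (-0.52, 95% interval -1.11 to 0.08). In both the breeds did not overlap, by a margin of a few signal units. The other lay at 254 to 368 in Large White and at 262 to 297 in Chinese Erhualian sows, and its log2 difference of -0.12 was 0.03 without Large White sow 1. CDC37, the cochaperone that hands kinases to HSP90, had signals of 1774, 1578 and 1456 against 1294, 1450 and 1118. Its breeds did not overlap, and the log2 difference was -0.32 (95% interval -0.77 to 0.13).

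Of the cyclins and kinases of S, G2 and M phase, cyclins of the A and B types are described first. CCNB1, a cyclin that switches on CDK1 at the start of mitosis, had signals of 695, 216 and 314 in Large White against 65.9, 304 and 208 in Chinese Erhualian sows. Signals of sows 2 and 3 of both breeds lay between 208 and 314, whereas Large White sow 1 stood 10.5 times above Chinese Erhualian sow 1. The log2 difference was -1.17 with a 95% interval of -2.79 to 0.46, and it was -0.05 without these 2 sows. CCNB2, the second B-type cyclin, had signals of 223, 97.1 and 140 in Large White against 25.9, 95.1 and 86.3 in Chinese Erhualian sows. Its breeds did not overlap, with Large White sow 2 and Chinese Erhualian sow 2 next to each other, and the log2 difference was -1.28 (SE 0.57, 95% interval -2.64 to 0.09). Without both sows numbered 1 it was -0.36. CCNA2, the cyclin of S phase and G2, followed the same order at the ends, with 121, 53.7 and 71.9 against 40.1, 62.8 and 75.4. Its log2 difference was -0.43 (95% interval -1.31 to 0.45), and 0.15 without both sows.

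CDC20, CDC23 and PLK1 had narrower ranges over the sows than these cyclins. CDC20, which activates the anaphase-promoting complex, had signals of 751, 492 and 578 in Large White against 473, 546 and 623 in Chinese Erhualian sows, and the log2 difference of -0.14 had a 95% interval of -0.70 to 0.43. CDC23, a subunit of that complex, lay between 222 and 278 in all 6 sows. PLK1, the kinase of spindle assembly, had 430 in Large White sow 1 and 232 to 295 in the other 5. CDC25B, a phosphatase that activates CDK1, stood apart in the opposite sow. Its signals were 536, 628 and 425 in Large White against 1448, 386 and 305 in Chinese Erhualian sows. It was the only division probe set in which Chinese Erhualian sow 1 exceeded the other 5 sows by at least 1.5 times, and without this sow its log2 difference went from 0.08 to -0.61.

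**Figure D3:**
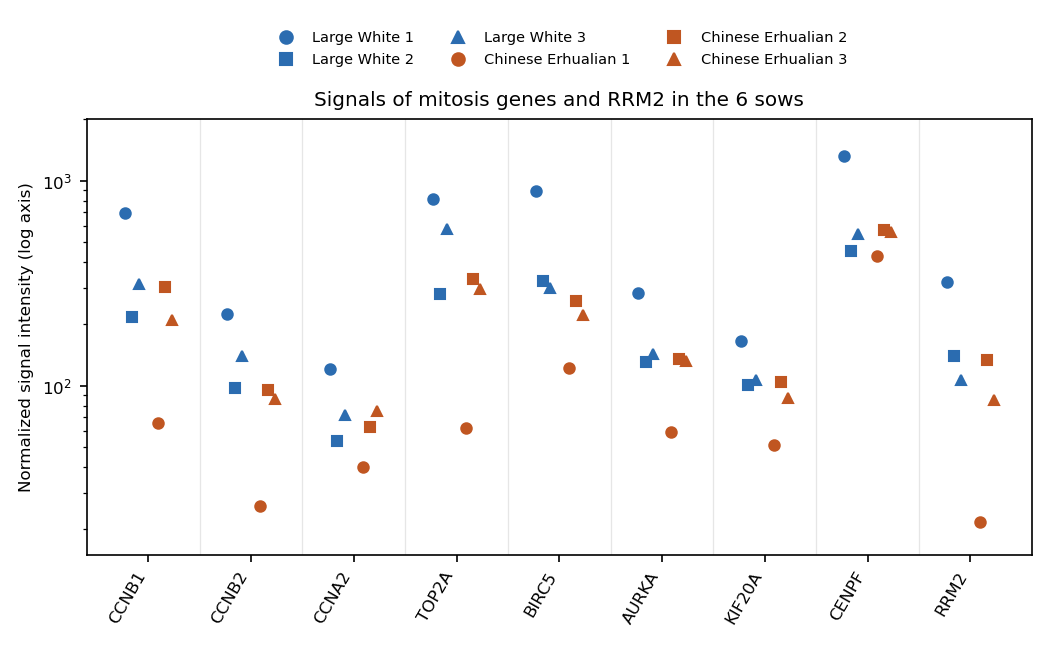
Normalized signal intensity (log axis) of 8 mitosis genes and RRM2 in each of the 6 sows. Blue is Large White, orange is Chinese Erhualian, and the symbol shape gives the sow number. In all 9 the highest signal is that of Large White sow 1 and the lowest that of Chinese Erhualian sow 1, and the other 4 sows lie close together in most. The 9 are a selection. This order was found in 12 of the 33 probe sets of the S, G2 and M phase, centromere and spindle groups (36.4%, against 5.95% of all tested probe sets).

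The highest signal in Large White sow 1 together with the lowest in Chinese Erhualian sow 1 was found for 4 of the 12 centromere and checkpoint probe sets and 3 of the 7 of spindle and chromosome structure (5.95% of all tested probe sets). TOP2A, the topoisomerase that untangles sister chromosomes before they part, had signals of 816, 280 and 579 in Large White against 62.4, 332 and 296 in Chinese Erhualian sows. Large White sow 2 lay below 2 of the Chinese Erhualian sows, and the log2 difference of -1.48 had a 95% interval of -3.24 to 0.28. It was -0.36 without both sows numbered 1. AURKA, the kinase of the centrosome and spindle poles, had 284, 131 and 143 against 59.7, 135 and 132 on its first probe set (log2 difference -0.77, 95% interval -1.82 to 0.27). On its second probe set AURKA had 161, 82.1 and 94.5 against 51.8, 87.4 and 96.2 (-0.51, 95% interval -1.34 to 0.32). KIF20A, a kinesin that acts at cytokinesis, had 165, 101 and 106 against 51.1, 104 and 86.7, and its log2 difference was -0.65 (95% interval -1.44 to 0.14). CENPF, a large protein of the kinetochore that peaks in G2 and mitosis, was high in Large White sow 1 alone, with 1321 there and 428 to 572 in the other 5 sows.

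Not all members of these groups had this order. AURKB, the kinase of the passenger complex to which BIRC5 belongs, had 520 in Large White sow 1 and 344 to 470 in the others, and its log2 difference was -0.08 (95% interval -0.64 to 0.48). CENPO lay between 195 and 248, and CENPI between 108 and 158. TOP2B, the topoisomerase that cells make whether or not they divide, had its lowest signal in Large White sow 1 on both probe sets. On the brighter probe set the signals of TOP2B were 1285, 1910 and 2558 in Large White against 2145, 1515 and 2517 in Chinese Erhualian sows, an order unlike that of TOP2A.

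No probe set of the replication group (0 of 35) passed an unadjusted p of 0.05 in either direction. Its range over the sows was nonetheless wide for the small subunit of ribonucleotide reductase, which makes deoxyribonucleotides. RRM2, the S phase form of this subunit, had signals of 321, 140 and 107 in Large White against 21.7, 133 and 84.9 in Chinese Erhualian sows, a 14.7-fold range with the sows numbered 1 at the ends. The log2 difference of RRM2 was -1.43 (95% interval -3.21 to 0.35), and -0.20 without these sows. RRM2B, the form that p53 induces outside S phase, had 552, 88.2 and 134 in Large White against 186, 404 and 115 in Chinese Erhualian sows. High and low values of RRM2B occurred in both breeds, and its log2 difference of 0.13 turned negative in 3 of the 6 fits that left out a sow. RRM1, the large subunit, lay between 960 and 1420 in all sows.

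The MCM helicase and its cofactor CDC45, which unwind DNA at the fork, showed a high signal in Large White sow 1 on most probe sets, whereas Chinese Erhualian sow 1 lay within or close to the range of the other sows on those of MCM2, MCM3, MCM4 and CDC45. MCM2 had 621, 254 and 286 in Large White against 245, 333 and 373 in Chinese Erhualian sows on its brightest probe set (log2 difference -0.19, 95% interval -1.11 to 0.73). Without Large White sow 1 this difference was 0.21. MCM3 had 352 in Large White sow 1 and 147 to 226 in the other 5 sows. MCM4 had 161 and 81.8 to 89.5 on its first probe set. On the second probe set of MCM4, however, Large White sow 1 had 98.2 and lay within the range of the Chinese Erhualian sows, 98.0 to 116. CDC45 likewise had 481 against 149 to 190 on the first probe set and 428 against 312 to 425 on the second. MCM5 was the helicase subunit with the lowest p. Its signals were 335, 165 and 180 in Large White against 115, 120 and 163 in Chinese Erhualian sows, without overlap, and the log2 difference was -0.72 (95% interval -1.48 to 0.04). The other 2 probe sets of MCM5 overlapped, at -0.73 and -0.36.

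**Figure D4:**
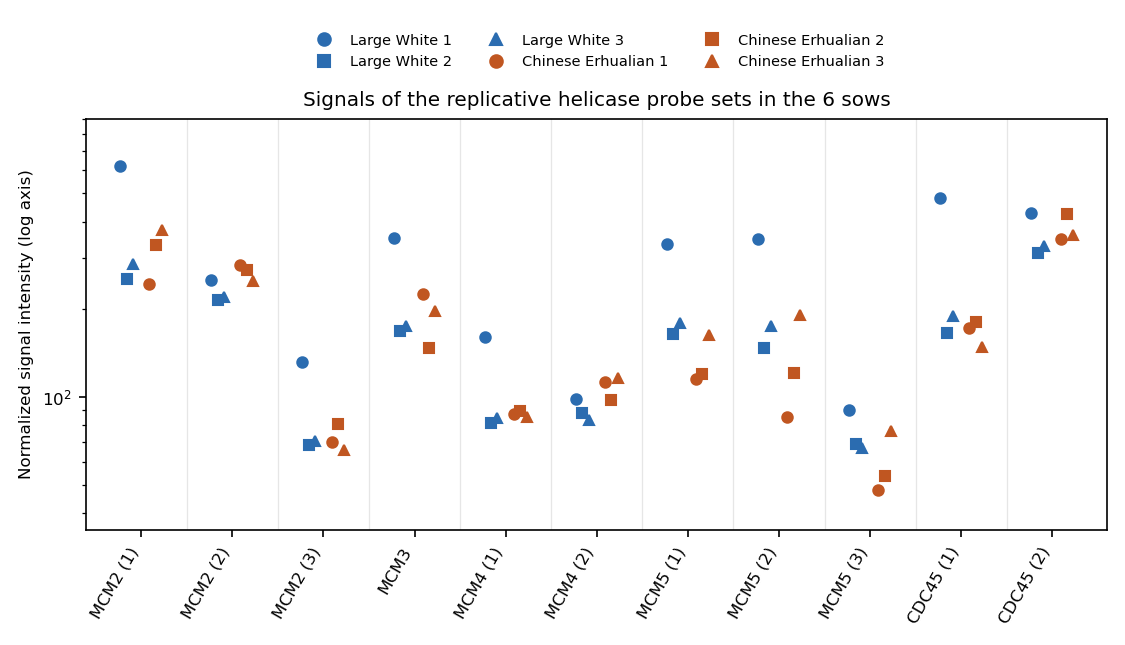
Normalized signal intensity (log axis) in each of the 6 sows for the 11 probe sets of MCM2, MCM3, MCM4, MCM5 and CDC45, numbered within each gene. Blue is Large White, orange is Chinese Erhualian, and the symbol shape gives the sow number. Large White sow 1 stands above the other sows on MCM2 (1), MCM3, MCM4 (1) and CDC45 (1), and within their range on MCM2 (2) and MCM4 (2).

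PCNA, the sliding clamp that holds polymerases on DNA, had 856, 477 and 571 in Large White against 383, 605 and 562 in Chinese Erhualian sows (log2 difference -0.28, 95% interval -1.01 to 0.45). The sows numbered 1 again had the highest and the lowest signal, and without them the difference was 0.16. POLA2, the B subunit of the polymerase that starts each new strand, had 232, 249 and 227 in Large White against 155, 204 and 192 in Chinese Erhualian sows. Here the breeds did not overlap, sow 1 did not lead Large White, and the log2 difference was -0.37 (95% interval -0.78 to 0.04). TYMS, the enzyme that makes thymidylate, had 296, 188 and 279 against 85.9, 175 and 200 on the brighter probe set (log2 difference -0.79, 95% interval -1.68 to 0.09). On the other probe set of TYMS the signals lay between 76.9 and 98.8 and the log2 difference was 0.05. Subunits of the origin recognition complex, which marks origins, and of the clamp loader varied little in several cases. ORC3 lay between 267 and 330 and RFC1, the largest clamp loader subunit, between 300 and 372 in all 6 sows.

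In the contrast group, KIF3A had a higher mean in Chinese Erhualian sows on all 4 of its probe sets. It is a motor subunit of the kinesin that carries cargo along cilia. The first of its 4 probe sets had signals of 115, 112 and 136 in Large White against 280, 240 and 159 in Chinese Erhualian sows. The breeds did not overlap, sow 1 had the highest Chinese Erhualian signal, and the log2 difference was 0.87 (SE 0.24, 95% interval 0.28 to 1.46, adjusted p = 0.993). It passed an unadjusted p of 0.05 in all 6 fits that left out a sow, at 0.69 to 1.10. The 2 dimmer probe sets of KIF3A had log2 differences of 0.49 (95% interval 0.02 to 0.95) and 0.47 (0.01 to 0.94), also without overlap. They passed that level in 2 and 1 of the 6 fits, and neither did so without sow 1 or sow 2 of either breed. On the brightest the signals of KIF3A were 229, 178 and 268 against 490, 360 and 243, and the breeds overlapped (0.66, 95% interval -0.08 to 1.40). On all 4 the signal of Chinese Erhualian sow 1 was the highest, which is the sow with the high sum of epithelial and oviduct markers. Without it the 4 log2 differences were 0.69, 0.41, 0.29 and 0.42.

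Other members outside division did not pass an unadjusted p of 0.05. CDK5, a kinase best known from neurons, had 548, 350 and 257 in Large White against 159, 321 and 193 in Chinese Erhualian sows, with a log2 difference of -0.77 (95% interval -1.68 to 0.13). All 3 probe sets of its relative CDK16 had lower means in Chinese Erhualian sows (log2 differences of -0.42, -0.60 and -0.69, with 95% intervals that reach 0.06, 0.04 and 0.16). CDC37L1, a relative of CDC37, had its lowest signal in Large White sow 1, with 75.2, 184 and 263 against 180, 162 and 225, and without this sow the sign of its log2 difference (0.28) turned to -0.23. Chinese Erhualian sow 2 stood alone in CDK7, the kinase that activates other cyclin-dependent kinases, with 709 against 249 to 392. It also stood alone in the kinesin KIF21A, with 311 against at most 132. CDC42, a GTPase that organizes actin, had no overlap on both of its tested probe sets, at log2 differences of -0.47 and -0.37 (both 95% intervals reach 0.07).

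Where a gene had several probe sets, these did not always give the same picture. The log2 differences of its probe sets had the same sign in 14 of the 24 genes and opposite signs in 10, and the median spread between the lowest and highest was 0.28. It was largest in TYMS (0.84), CDC45 (0.66), MCM4 (0.52) and MCM2 (0.49), all of the replication group. With the brightest probe set standing for each of the 86 genes, 5 genes had a lower and 0 a higher signal at an unadjusted p of 0.05, since the brightest probe set of KIF3A did not pass.

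**Figure D5:**
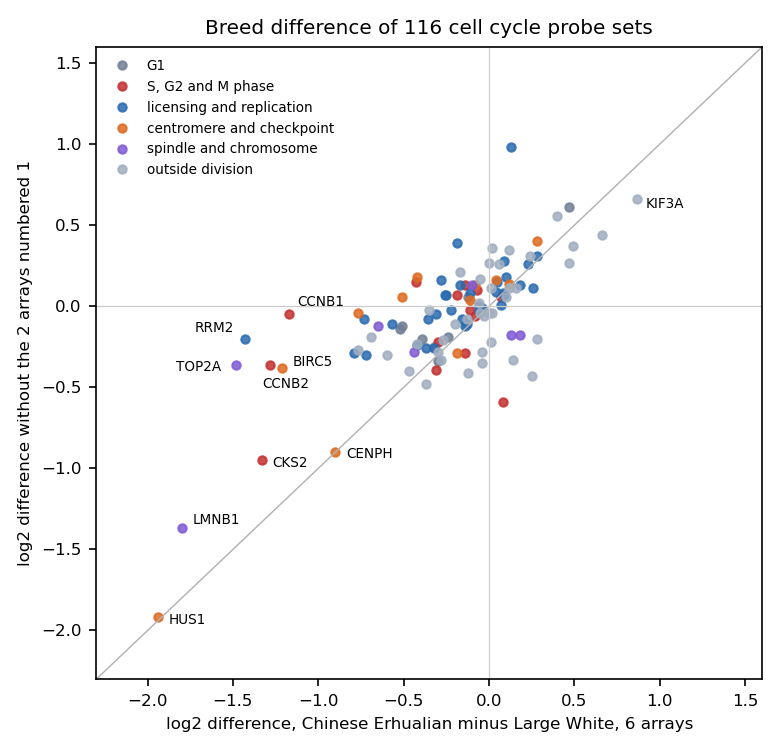
Log2 difference, Chinese Erhualian minus Large White, of the 116 member probe sets, coloured by role group. The horizontal axis is from all 6 arrays and the vertical axis without the arrays of the sows numbered 1. The line marks equal values. CCNB1, TOP2A, RRM2 and CCNB2 move from between -1.48 and -1.17 to between -0.36 and -0.05, and HUS1, LMNB1, CKS2 and CENPH remain at -0.90 or lower.

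The filter kept few members that were near its level. A signal above 50 on all 6 arrays was found for 108 of the 116, and 0 members passed through 1 breed alone. Just inside was a probe set of POLE2, with 50.7, 41.2 and 48.9 in Large White against 61.2, 47.7 and 50.6 in Chinese Erhualian sows. Just outside was a probe set of PLK3, with 57.0, 45.2 and 44.6 against 46.6, 45.4 and 39.3. The other 3 below the level were probe sets of CDC42, CDC42BPB and ORC4, whose genes are represented by other probe sets. No probe set with the symbol MKI67, CDK1, CCND1, CCND3, CCNE1, CCNE2, CDK4 or CDK6 was among the members.

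Genes of the same pathways with other names were described from 3 lists, with the brightest probe set of each gene. The first held 20 tested CDK inhibitors, pocket proteins, E2F factors and other regulators, among them the activators FOXM1 and MYBL2. Of these 20 genes, 0 had a lower and 1 a higher signal at an unadjusted p of 0.05, with a median log2 difference of -0.07 (2.3% and 1.56% of all tested probe sets were lower and higher). The higher gene was CCNG1, an atypical cyclin induced by p53, with signals of 1964, 2168 and 2922 in Large White against 2656, 6458 and 4177 in Chinese Erhualian sows (log2 difference 0.84, SE 0.35). The breeds overlapped at Chinese Erhualian sow 1, and without Large White sow 1 the difference of CCNG1 was 0.72 and did not pass this level. The inhibitors CDKN2B (-0.33), CDKN3 (-0.60) and the stress gene GADD45G (-0.41) came next and did not pass this level.

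Among 19 other replication genes, 4 had a lower and 0 a higher signal, with a median of -0.33, and in 7 the Chinese Erhualian sows lay below without overlap. Over all tested probe sets these shares were 2.3% lower, 1.56% higher and 5.12% below without overlap. ASF1B, a histone chaperone of the replication fork, had 284, 269 and 180 in Large White against 0.658, 0.776 and 1.97 in Chinese Erhualian sows (adjusted p = 0.00215). This probe set exceeded 50 in Large White sows only, so that it passed the filter through the breed in which it was high. The signals of 0.658 and 0.776 were set to 1 before the fit. Its separation of the breeds and its adjusted p are therefore not read as support, and the counts of 4 and 7 include it. The other probe set of ASF1B, however, had signals of 191, 79.1 and 85.4 against 40.1, 75.8 and 64.4 (log2 difference -0.91, not past an unadjusted p of 0.05). RPA2, which covers single-stranded DNA, had 1027, 893 and 801 against 573, 625 and 669 (-0.54, SE 0.19). GINS3, a subunit of the helicase complex, had 142, 181 and 175 against 80.4, 91.5 and 130 (-0.74, SE 0.23). H2AFZ, a histone variant, had 5542, 5139 and 4201 against 2053, 4012 and 2858 (-0.78, SE 0.27). In these 4 genes the breeds did not overlap, and in GINS3 Large White sow 1 was the lowest of its breed. Without Chinese Erhualian sow 1 the count of 4 was 2, and without Large White sow 1 it was 3.

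Among 19 genes of a list of other mitosis genes, 4 had a lower and 0 a higher signal, with a median of -0.27 (2.3% and 1.56% of all tested probe sets). The list also holds the cyclins CCNC, CCNH and CCNI, which are not specific to mitosis. Large White sow 1 had the highest signal in 13 of the 19 (68.4%, against 19.3% of all tested probe sets) and Chinese Erhualian sow 1 the lowest in 12 (63.2%, against 23.1%). UBE2C, the ubiquitin-conjugating enzyme of the anaphase-promoting complex, had 2295, 732 and 973 in Large White against 131, 693 and 481 in Chinese Erhualian sows (log2 difference -1.74, SE 0.72). PTTG1 (securin) had 952, 465 and 460 against 119, 384 and 240 (-1.40, SE 0.50). In both, the highest and the lowest signal came from the sows numbered 1, as in CCNB1 and TOP2A, but the breeds did not overlap. RACGAP1, a regulator of cytokinesis, had 666, 401 and 448 against 112, 335 and 279 (-1.17, SE 0.45). NEK2, a kinase of the centrosome, had 407, 118 and 179 against 60.7, 83.0 and 76.7 (-1.49, SE 0.45), but its other 2 probe sets gave -0.02 and -0.18. With Chinese Erhualian sow 1 left out the median of this list was -0.11, and with Large White sow 1 left out -0.05. The count of 4 was 1 in each case.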

How the data were processed

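RNA of ovarian follicles from 3 Large White and 3 Chinese Erhualian sows was measured on 6 porcine GeneChip arrays. The authors made the deposited signal intensity values from the scans with MAS5 (version 2.3.1 in the submitters' processing notes), scaled each array to a common target and applied the invariant set normalization of dChip. The values are linear, and since each array was scaled, a difference in RNA amount per follicle cannot be seen. The number of arrays limits the precision.

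Signals under 1 were set to 1, and 188 control probe sets were left out of 24123. Of the other 23935, those above 50 on at least 3 arrays were fitted on the log2 scale with limma 3.58.1 (R 4.3.3), breed alone and a variance trend, 2-sided, with Benjamini-Hochberg adjustment. Fits that left out a sow kept this tested set. An exact permutation test of 3 against 3 cannot give a p below 0.1. SD is over sows, and nothing beyond the labels tells whether sows of a breed were related.

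Gene symbols are those of GEO's annotation of the array. The members, role groups, pathway and marker lists were chosen with earlier results of these data known. CDC37L1 was in no role list and was put outside division. Named by rule were 23 fixed cell cycle genes, the 3 smallest p and 2 widest ranges of each role group, and the 4 smallest p of each pathway list. CDC23, CDC25B, CDC42, CDK7, CDK16, CENPF, CENPI, CENPO, AURKB, CDC45, KIF21A, MCM3, MCM4, ORC3, PLK1, RFC1, RRM1, TOP2B, INHA, INHBA, KIT with the other oocyte markers, and the members at the filter level were chosen after their values were seen.

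The limma procedure was tested on simulated data. Alternatives were quantile and median normalization, other filters and offsets, a constant prior variance, array weights, array number as a block, the methods' t-test and each sow left out. Leaving out both sows numbered 1 was chosen after seeing the data. Python 3.11.15 with pandas 2.3.3 made the summaries and matplotlib 3.10.9 the figures.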

Additional observations from a re-analysis of the deposited data

How the results depend on the processing

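The adjusted calls over all tested probe sets (4) became 11 with array weights and 0 with the methods' t-test. That t-test gave 846 unadjusted calls, of which 9 were members. The adjusted calls were 2 to 4 with a sow left out and 0 without both sows numbered 1. The lower count of 5 ranged from 4 to 10 and the higher count of 3 from 1 to 4 with a sow left out. Over all tested probe sets these counts (441 and 300) ranged from 229 to 743 and from 144 to 482. The higher count of members was 0 without both sows numbered 1 (261 over all tested probe sets). It was also 0 with the brightest probe set per gene. The count of 17 without overlap below was 10 after median scaling, and 17 to 27 with a sow left out (27 without Large White sow 2 or Chinese Erhualian sow 2). The count of 4 above was 4 to 11 with a sow left out and 15 without both sows numbered 1. Fewer sows make separation easier, so the last counts are not set against the main ones. The cause of the other shifts was not tested. The median of -0.13 ranged from -0.21 (without Large White sow 3) to -0.08 (without Large White sow 1) with a sow left out, and was -0.04 without both sows numbered 1.

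With array number as a block (pairing), 0 probe sets passed an adjusted p of 0.05, and the lower and higher counts of members were 4 and 1. Nothing in the labels says that the numbers pair the sows. Deviations of sows with the same number from their breed mean correlated at -0.172, -0.137 and 0.273 across probe sets. Large White sow 1 correlated best with Chinese Erhualian sow 2 (0.512), Large White sow 2 with Chinese Erhualian sow 3 (0.158) and Large White sow 3 with Chinese Erhualian sow 3 (0.273). With 3 sows a breed, these correlations cannot decide whether the sows were paired.

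Of 537 alternatives for 34 named probe sets, 479 kept direction and side of an unadjusted p of 0.05, 9 moved a probe set past it and 29 back, and 20 turned a sign, all in probe sets without a call. With array weights 2 turned, CDC20 (0.06) and MCM2 (0.15). With 1 sow or both sows numbered 1 left out, the log2 difference ranged from -0.70 to 0.06 for the second probe set of AURKA, -0.70 to 0.15 for CCNA2, -0.28 to 0.13 for CDC20, -0.23 to 0.67 for CDC37L1, -0.24 to 0.06 for the CDK2 probe set with the smallest difference, -0.43 to 0.39 and -0.42 to 0.07 for probe sets of MCM2, -0.46 to 0.16 for PCNA, -0.41 to 0.98 for RRM2B and -0.03 to 0.15 for the dimmer probe set of TYMS. The other probe sets of AURKA, CDK2, MCM2 and TYMS turned no sign.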
